A study of Mus musculus with 2 samples.

Results

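The SERCA calcium pumps and their small inhibitors were 5 of the 15747 annotated genes with a read in long-read RNA sequencing of mouse gastrocnemius, the large calf muscle. Members were the transcript models whose annotated gene name was Atp2a1, Atp2a2 or Atp2a3 (the pumps SERCA1, SERCA2 and SERCA3), Sln (sarcolipin) or Pln (phospholamban). The rule used gene names and no measured value. Total RNA came from 14-day-old female B6CASTF1/J mice, the first-generation hybrid of the C57BL/6 and CAST/Ei strains. The labels give 1 group of 2 libraries, biological replicates 1 and 2, with no treatment, no mutant allele and no control group. For replicate 1 the biosample label names 3 females, and for replicate 2 it names a female with no number. The 2 libraries share a donor identifier, and the sources used here do not say whether animals were pooled. Comparisons between the libraries therefore describe their reads. The p-values and intervals cover counting error only, apart from the p-values of edgeR's exact test, described below.

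SERCA pumps move calcium from the cytosol back into the sarcoplasmic reticulum after each contraction, at the cost of ATP, and so let the fibre relax. Fast skeletal fibres are known for SERCA1, slow fibres and heart for SERCA2, and non-muscle cells such as platelets, lymphocytes and endothelium for SERCA3. Sarcolipin and phospholamban are single-pass membrane peptides that bind the pump and lower its apparent calcium affinity or its transport efficiency. Pump genes also differ at their 3′ ends, where alternative splicing sets the carboxyl terminus and, for SERCA1, marks the adult (1a) and neonatal (1b) forms.

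The stretches that separate these forms are shown first because the splice results below turn on them. They are from the GENCODE M21 transcripts on mm10, each 5′ to 3′ on the strand of its gene. Capitals mark stop codons. The first is the 5′ end of exon 22 of Atp2a1 (chr7:126446557-126446586, minus strand), which ends the adult reading frame. The next is the start of exon 23 (chr7:126446101-126446126, minus strand), which is read as protein when exon 22 is skipped. For Atp2a2 the tail of 2a is the start of exon 21 (chr5:122454291-122454304, minus strand), and that of 2b is the sequence after exon 20 when the splice to exon 21 is not made (chr5:122457151-122457302, minus strand).
Atp2a1 exon 22, first 30 bases: gaTAAccacccccctcctccatgtctttga
Atp2a1 exon 23, start: atccagaagacgaaagaaggaagTAA
Atp2a2 exon 21, start (2a): caatactggagTAA
Atp2a2 read-through (2b): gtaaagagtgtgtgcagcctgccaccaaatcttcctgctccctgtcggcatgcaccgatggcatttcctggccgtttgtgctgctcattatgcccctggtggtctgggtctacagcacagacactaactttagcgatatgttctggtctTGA

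In the annotation the adult frame of Atp2a1 has 994 codons before its stop and the neonatal frame 1001. The 2a frame of Atp2a2 has 998 codons and the 2b frame 1044. Each pump gene also has an 18-base second exon, shown next because its use differed between the Atp2a1 and Atp2a2 models. Capitals here mark the 11 bases that are the same in all 3 genes. The exons lie at chr7:126462500-126462517 (Atp2a1, minus strand), chr5:122500931-122500948 (Atp2a2, minus strand) and chr11:72970596-72970613 (Atp2a3, plus strand).
Atp2a1 exon 2: AgcTcCCtgCtGAgGAAG
Atp2a2 exon 2: AatTgCCggCtGAaGAAG
Atp2a3 exon 2: AgcTcCCgaCcGAgGAAG

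Sarcolipin is encoded in a single short frame of 31 codons before the stop (chr9:53853473-53853568, plus strand). Its coding sequence is printed because this gene had the largest difference between the libraries among the members. Capitals mark the start and stop codons. The frame of Pln has 52 codons before the stop.
Sln coding sequence: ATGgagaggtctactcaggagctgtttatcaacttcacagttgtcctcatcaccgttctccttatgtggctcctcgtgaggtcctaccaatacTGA

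The tables held 1316937 reads in replicate 1 and 1204188 in replicate 2, of which 1248854 and 1106450 lay in annotated genes. Levels are given as CPM, the reads of a gene per 1000000 of those gene reads. A long read stands for 1 cDNA whatever its length, so CPM was not divided by length. A single read was worth 0.801 and 0.904 CPM, and a count of 0 allows up to 2.40 and 2.71 CPM. The libraries differed in model length, with a mean per read of 2347 and 1545 bases. Cardiac markers were near 0, with 9 and 2 reads of Myh6, 0 and 1 of Tnni3, and none of Nppa, Ryr2 and Myl7. The 6 fast-fibre markers summed to 48394 and 27375 CPM and the 5 slow-fibre markers to 1808 and 2848 CPM.

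Atp2a1 was nearly the whole of the pump pool. It had 144343 reads in replicate 1 and 39622 in replicate 2, which is 115580 and 35810 CPM, with a mean of 75695 ± 56406 CPM (SD, n = 2). That made it the most read gene of replicate 1 and the fourth most read gene of replicate 2, with 11.6% and 3.58% of the gene reads. In both libraries it was far above every other member. Of all pump reads it took 99.8% in replicate 1 (99.78–99.83%) and 99.7% in replicate 2 (99.67–99.78%). Ranges after shares are 95% Wilson intervals.

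Atp2a2, the pump of slow fibres and heart and, as 2b, of most other cells, had 274 and 105 reads. These are 219 and 94.9 CPM, with a mean of 157 ± 88.0 CPM (SD, n = 2). It ranked 442nd and 1125th among genes and took 0.189% (0.168–0.213%) and 0.264% (0.218–0.320%) of pump reads. For each Atp2a2 read there were 527 Atp2a1 reads in replicate 1 and 377 in replicate 2. Both pumps had fewer reads in replicate 2.

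Atp2a3 was at the limit of detection, with 4 and 2 reads (3.20 and 1.81 CPM). The exact Poisson intervals were 0.873 to 8.20 CPM and 0.219 to 6.53 CPM. In replicate 1 each of its reads was a model of its own, and in replicate 2 both lay in a single-exon model of 832 bases. Markers of cell types known for SERCA3 ranged from none to well above its level. The 4 platelet markers had 16 and 39 reads in all, of which Pf4 had 15 and 38, and Gp9 was at 0. The 4 leukocyte markers had 41 and 29 reads in all, of which Lyz2 had 40 and 29, and Cd3e and Cd79a were at 0. The 4 endothelial markers summed to 251 and 156 CPM, led by Cldn5 at 151 and 121 CPM. In whole tissue, fewer cells of a type and less RNA per cell cannot be told apart.

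**Figure D1:**
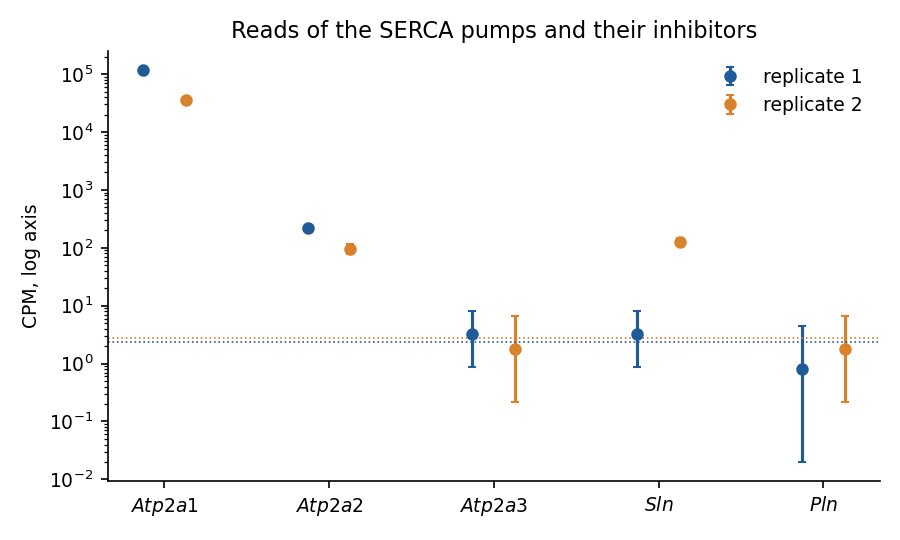
Level in CPM (log axis) of the 5 members in replicate 1 and replicate 2, with exact 95% Poisson intervals as bars (smaller than the point for Atp2a1) and dotted lines at the level of 3 reads in each library. Atp2a1 stands at 115580 and 35810 CPM, Sln is at 3.20 CPM in replicate 1 and 127 CPM in replicate 2, and Atp2a3 and Pln lie near the dotted lines in both.

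Sarcolipin differed most between the libraries. Sln had 4 reads in replicate 1 and 141 in replicate 2. These are 3.20 CPM (exact Poisson interval 0.873 to 8.20) and 127 CPM (107 to 150), a mean of 65.3 ± 87.8 CPM (SD, n = 2), so the mean describes neither library. The gene ranked 9327th in the first and 842nd in the second. Its level was 39.8-fold higher in replicate 2, and the intervals did not overlap. Set against the pump it binds, there were 0.0277 Sln reads per 1000 Atp2a1 reads in replicate 1 and 3.56 in replicate 2.

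Every Sln read in both libraries belonged to the single annotated 2-exon transcript of the gene, whose model is 1318 bases long. No model of another gene or of an unannotated locus overlapped it on either strand. Sarcolipin is known as the inhibitor of atria and of slow and developing skeletal muscle. In these libraries the atrial markers Nppa and Myl7 were at 0. Of the slow-fibre markers, 4 of 5 were called as higher in replicate 2 (median log2 ratio over the list -1.30) by the test described below, a direction called in 11.4% of all genes. None of the 5 was called with the trend of the ratio on model length removed, against 6.7% of all genes. The 5 markers of developing fibres were mixed. Their sum, mostly Actc1, was 2357 CPM in replicate 1 and 1761 CPM in replicate 2, and their median log2 ratio was 0.10. Of these 5, 0 were called as higher in replicate 1 and 2 as higher in replicate 2, Tnnt2 with 0 and 22 reads and Myl4 with 24 and 50. With the length trend removed Tnnt2 was called and Myl4 was not. The 4 Schwann cell markers summed to 570 and 2449 CPM, and 4 were called as higher in replicate 2, 3 of them also with the trend removed. The part of these cell types in the Sln difference was not tested.

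Phospholamban, the inhibitor best known from the ventricle, was at or below the limit of 3 reads in both libraries. Pln had 1 read in replicate 1, in an annotated transcript, and 2 in replicate 2, in an unspliced model of 85 bases. The intervals were 0.0203 to 4.46 CPM and 0.219 to 6.53 CPM. At this depth Pln stayed under the 2.40 and 2.71 CPM that a count of 0 allows, so its presence rests on these 1 and 2 reads. Neither Pln nor Atp2a3 had enough reads for a test.

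Differences between the libraries were tested gene by gene with Fisher's exact test on reads, with Benjamini-Hochberg adjustment over 8973 genes. A call required an adjusted p under 0.05 and a log2 ratio of TMM-scaled CPM of at least 1 in size. Of all genes 20.2% were called, 796 higher in replicate 1 (8.87%) and 1020 higher in replicate 2 (11.4%), so a call by itself was common. Scaled by total reads the split was 1119 and 808. Of the 3 members that could be tested, 2 were called, Atp2a1 as higher in replicate 1 (log2 ratio 1.41) and Sln as higher in replicate 2 (log2 ratio -5.41, adjusted p = 4.4e-39, Fisher's exact test). Atp2a2 had a log2 ratio of 0.92 (adjusted p = 3.7e-13, Fisher's exact test) and stayed under the required size. The ratio of Atp2a2 passed when scaled by total reads (1.21) and in full splice models only (1.13).

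Because the ratio of the libraries followed model length over all genes, each member was also read against genes of like model length. That length is the mean model length over a gene's reads in these libraries, incomplete models included, so it can differ from the annotated length. For Sln, with every read in its single annotated transcript, it was the 1318 bases of that model. It does not give the lengths of the reads. The trend at the length of Atp2a1 was 0.52, which left a log2 ratio of 0.89, under the required size. Atp2a2 was left at 0.34 (adjusted p = 0.19, exact binomial test). Sln stayed at -4.87 (adjusted p = 3.0e-33, exact binomial test), and 4 of 8973 genes, itself included, were at or below that value. With the trend removed 6.7% of all genes were called. Under edgeR's exact test with a common dispersion, which takes the spread between the libraries over all genes as its error, Sln was still called (log2 ratio -5.55, adjusted p = 0.0041) as 1 of 11 genes, and Atp2a1 was not (adjusted p = 0.98).

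**Figure D2:**
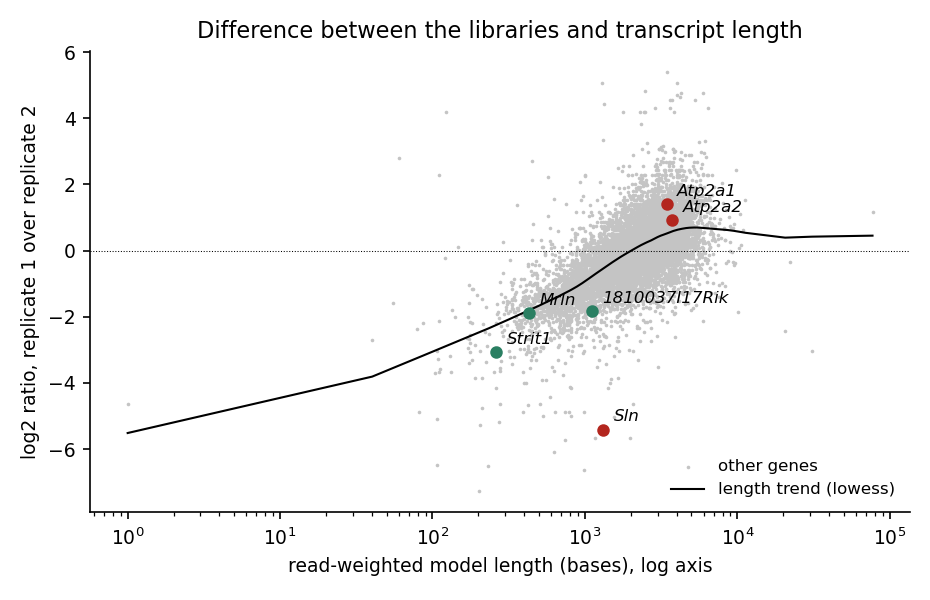
Log2 ratio of replicate 1 to replicate 2 (TMM-scaled CPM) against read-weighted model length in bases (log axis) for all 8973 genes tested (grey), with the lowess trend as a line, members in red and the other small SERCA-binding peptides in green. Atp2a1 and Atp2a2 lie above the trend by 0.89 and 0.34, and Sln lies below it at a ratio of -5.41.

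Most Atp2a1 reads were assigned to a single splice chain that the annotation does not hold. The gene spans 126445858 to 126463108 on the minus strand of chromosome 7, and its annotated full-length transcript has 23 exons. No read was assigned to that transcript. The chain with most reads had 22 exons and 3485 bases, with 131695 reads (91.2%) in replicate 1 and 33609 (84.8%) in replicate 2. The next had 21 exons and 3443 bases, with 4891 reads (3.39%) and 2637 (6.66%). These 2 chains differ by exon 22. Together they held 94.6% and 91.5% of the reads, and no other chain held more than 0.810% in either library.

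The authors' classes follow from this. Models with at least 1 splice site outside the annotation (NNC) held 92.3% of Atp2a1 reads in replicate 1 and 86.1% in replicate 2, while known models held 5 and 7 reads, all in the short second annotated transcript. The second chain is classed by the authors as a new combination of known sites (NIC), although it ends exon 1 at the same unannotated donor. For Atp2a2 known models held 78.5% and 66.7% of reads. Its leading model was the annotated 2a transcript, with 191 and 65 reads, and the annotated 2b transcript had 24 and 5. Over both libraries Atp2a1 had 767 distinct chains, of which 191 were seen in both and 91 had at least 10 reads. Models seen in a single read made up 415 of its 644 in replicate 1 and 186 of its 320 in replicate 2.

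The unannotated site of Atp2a1 lay at the end of exon 1. In the leading chain, exon 1 ran 26 bases past the annotated donor, to base 126462779 in place of 126462805, and was joined directly to exon 3 without the 18-base exon 2. Of reads spliced into exon 3, 139598 of 140093 (99.6%) in replicate 1 and 37374 of 37489 (99.7%) in replicate 2 had that junction. Exon 2 itself was present in 15 reads (0.0107%, 0.00649–0.0177%) and in 4 reads (0.0107%, 0.00415–0.0274%). A donor 4 bases past the annotated one came next, with 325 and 57 reads. The 2 libraries gave nearly the same shares.

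The models of Atp2a2 had the reverse pattern. Its second exon was present in 233 of 248 reads spliced into exon 3 (94.0%, 90.3–96.3%) in replicate 1 and in 71 of 73 (97.3%, 90.5–99.2%) in replicate 2. The intervals of the 2 genes were far apart in both libraries. All but 1 of the remaining Atp2a2 reads used a donor 4 bases past the annotated one, 14 and 2 in number. Of the 3 Atp2a3 reads spliced into exon 3, all in replicate 1, none held its second exon. The second exons of Atp2a1 and Atp2a2, shown above, share 13 of their 18 bases.

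In Atp2a1 the longer exon 1 and the missing exon 2 change the length of the message by 8 bases net, which is not a multiple of 3. Both lie within the annotated coding sequence, since exon 1 holds 118 coding bases. Exon coordinates in the files are those of aligned models, and the reads themselves were not analysed here, so whether the reads carry the 18 bases of exon 2 was not tested. The same junction stood in both 3′ forms. Among reads over exon 1 it was in 99.3% of 1a reads and 99.1% of 1b reads in replicate 1, and in 99.3% and 99.4% in replicate 2.

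**Figure D3:**
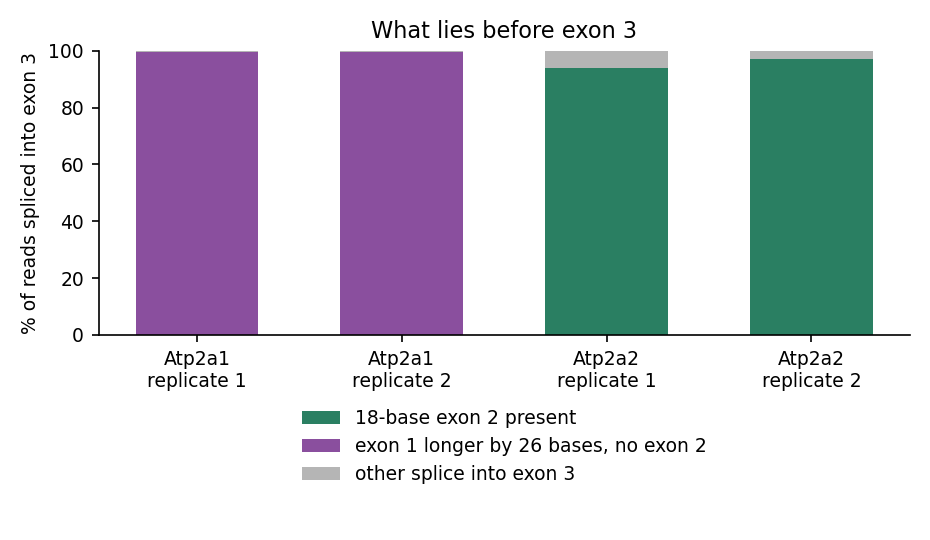
Share of the reads spliced into exon 3 (percent, bars from 0) by what lies before it, for Atp2a1 and Atp2a2 in each replicate. The purple bars of Atp2a1 (99.6% and 99.7%) are exon 1 longer by 26 bases, and the green bars of Atp2a2 (94.0% and 97.3%) are reads with the 18-base exon 2.

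The adult form dominated Atp2a1 at this age. Exon 22, whose stop codon ends the 1a frame, was included in 137354 of the 142473 reads of the 2 forms in replicate 1 (96.4%, 96.3–96.5%) and in 35968 of 38777 in replicate 2 (92.8%, 92.5–93.0%). The mean was 94.6% ± 2.58 (SD, n = 2). The neonatal form, with exon 22 skipped, had 5119 reads (3.59%, 3.50–3.69%) and 2809 reads (7.24%, 6.99–7.51%). Exon 22 was the minority choice in neither library, and the 1b share was higher in replicate 2. The difference of 3.65 percentage points in exon 22 inclusion passed the adjusted p (3.8e-186, Fisher's exact test over 3747 exons) but not the required 10 points. Over all exons 0.0267% were called.

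The 1b share was close in reads that reached upstream to different extents. In replicate 1 it was 3.59% (3.49–3.69%) among reads that reached exon 1 and 3.85% (3.27–4.54%) among those that did not. In replicate 2 the values were 7.25% (6.99–7.52%) and 7.13% (6.04–8.40%). Within each library the intervals overlapped, while those of the 2 libraries did not. Reads that kept the intron between exons 22 and 23 numbered 1084 and 391 and were placed in neither form.

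For Atp2a2 the muscle form 2a was the main one. Reads spliced from exon 20 to exon 21 were 242 of 267 in replicate 1 (90.6%, 86.5–93.6%) and 84 of 91 in replicate 2 (92.3%, 85.0–96.2%). Their mean was 91.5% ± 1.18 (SD, n = 2). The 2b form, found in most other cells, had 25 reads (9.36%, 6.42–13.5%) and 7 reads (7.69%, 3.78–15.0%). These intervals overlapped. The use of the last splice acceptor, tested on full splice models, differed by -3.36 points between replicate 1 and replicate 2 (adjusted p = 1, Fisher's exact test over 1429 genes, of which 0.56% were called). In replicate 2 that test had 69 reads with the main acceptor and 5 with another, so a difference of a few points was not detectable at this depth. In replicate 1 the 4 Atp2a3 reads were split as 2 with and 2 without exon 21.

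**Figure D4:**
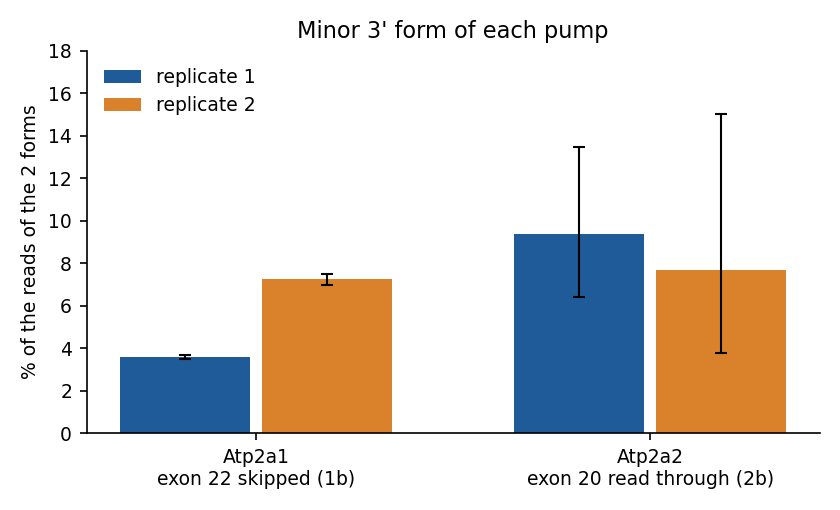
Share of the minor 3′ form among the reads of the 2 forms of each pump (percent, bars from 0), with 95% Wilson intervals as error bars. Skipping of exon 22 in Atp2a1 was 3.59% in replicate 1 and 7.24% in replicate 2, and read-through of exon 20 in Atp2a2 was 9.36% and 7.69% with wide, overlapping intervals.

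Most pump reads were assigned to models that reach from the first exon to a 3′ terminal exon. Models covering both the first and the last exon of Atp2a1 held 97.1% of its reads in replicate 1 and 94.3% in replicate 2. For Atp2a2, whose models are of similar length, they held 90.1% and 69.5%, and the loss was at the 5′ side, with 90.5% and 69.5% of reads over exon 1 against 99.6% and 98.1% over a 3′ terminal exon. Atp2a2 thus lost more of its 5′ end in replicate 2 than Atp2a1 did. Part of this gap came from single-exon models, such as one of 181 bases near the 3′ end with 11 reads in replicate 2 and none in replicate 1.

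A small set of Atp2a1 reads stopped in intron 9. Spliced models whose last exon began as exon 9 held 511 reads (0.354%) in replicate 1 and 314 (0.792%) in replicate 2. The largest of them joined 8 exons from exon 1 on and ran 2548 bases into the 2926-base intron in replicate 1 (470 reads) and 1789 bases in replicate 2 (269 reads). The position of the end is that of the model, since the tables do not give the end of each read. Internal exons between exon 3 and exon 21 were otherwise almost always joined in order, as the coverage by exon shows.

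**Figure D5:**
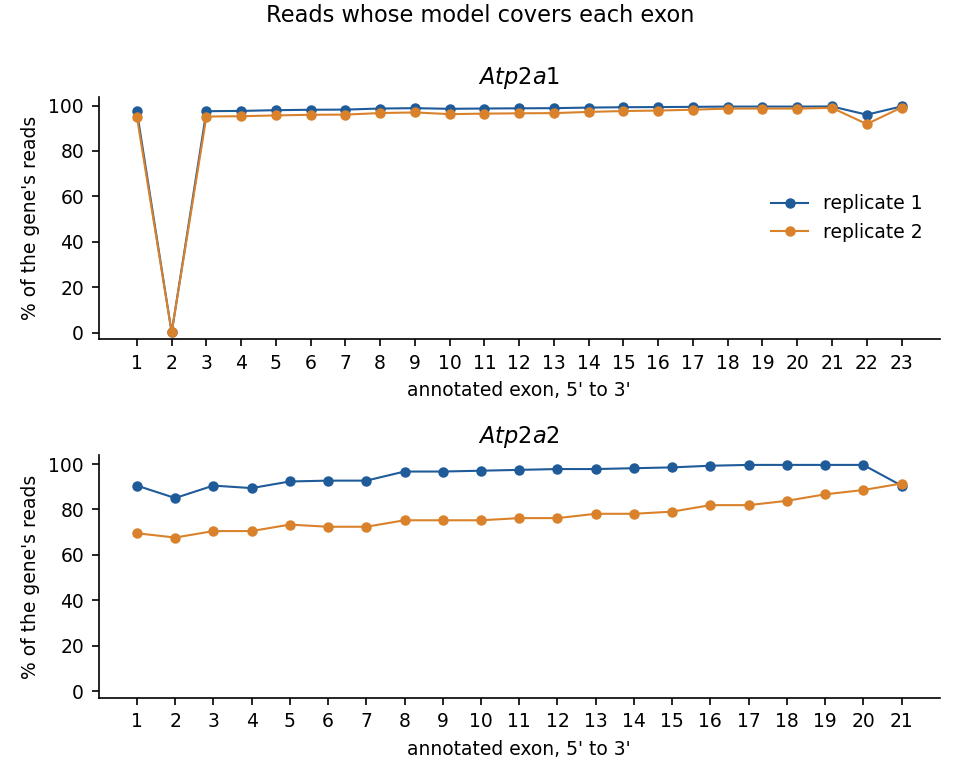
Share of a gene's reads whose model covers each annotated exon, 5′ to 3′ (percent), for Atp2a1 (23 exons) and Atp2a2 (21 exons) in replicate 1 and replicate 2. Atp2a1 drops to near 0 at exon 2 and dips at exon 22 in both libraries, and Atp2a2 declines towards its 5′ end in replicate 2, where exon 1 is covered by 69.5% of reads.

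Other small peptides that bind SERCA gave a partial parallel to Sln. Of 5 such genes 4 had reads and 3 could be tested, and all 3 were called as higher in replicate 2, the direction in which 11.4% of all genes were called. The median log2 ratio of the 3 was -1.89, against 0.01 over all genes. Myoregulin, Mrln, an inhibitor of skeletal muscle, had 56 and 152 reads (44.8 and 137 CPM, log2 ratio -1.89). Strit1, which encodes DWORF, a peptide that displaces the inhibitors, had 8 and 52 reads (log2 ratio -3.07). The gene of another-regulin, 1810037I17Rik, had 17 and 45 reads (log2 ratio -1.83). With the length trend removed none of the 3 was called, and Mrln was left at -0.09. Nnat had 3 and 6 reads, and Smim6, endoregulin, was at 0 in both libraries. In replicate 1 Mrln had more reads than Sln, 56 against 4, and in replicate 2 the counts were close, 152 and 141.

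The other calcium ATPases were rare. Of 6 plasma membrane (Atp2b) and Golgi (Atp2c) pumps, which export calcium from the cell or load the secretory pathway, 2 could be tested and neither was called, against 20.2% of all genes. Atp2c1 had 27 and 14 reads and Atp2b1 had 14 and 4. Atp2b2, Atp2b3, Atp2b4 and Atp2c2 had 0 to 4 reads in a library. Together the 6 genes had 48 and 22 reads, fewer than Atp2a2 alone in either library.

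Genes of calcium release and storage, the partners of the pumps in the reticulum, were abundant in both libraries. The 14 genes summed to 18676 and 18151 CPM, and their median log2 ratio was 0.23. Of 13 tested, 1 was called as higher in replicate 1 and 2 as higher in replicate 2, where 8.87% and 11.4% of all genes were called. With all models counted the list was thus near the background. The calcium buffer Casq1 led with 11984 and 7433 reads (9596 and 6718 CPM) and was not called. Sarcalumenin, Srl, was higher in replicate 1 (5233 and 1695 reads, log2 ratio 1.17). Hrc, a histidine-rich calcium-binding protein of the lumen, and Trdn, triadin, were higher in replicate 2 (log2 ratios -3.22 and -1.61). In full splice models only, Srl (1852 and 1218 reads, log2 ratio -0.0023) and Trdn (227 and 247 reads, -0.73) were not called. Hrc was still called there, on 67 and 172 of its 922 and 6236 reads (log2 ratio -1.96). Hrc alone was called with the length trend removed (-1.15), against 6.7% of all genes. The potassium channel Tmem38a (2481 and 1561 reads) and the voltage sensor Cacna1s (646 and 316 reads) were not called. In full splice models Cacna1s (log2 ratio 1.79), Jph1 (1.25), Jph2 (2.86) and Stim1 (1.44) were called as higher in replicate 1. In those models 22.3% of all genes were called in either direction.

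With all models counted, none of 10 regulators of the inhibitors was called, against 20.2% of all genes. In full splice models Ppp1r1a (log2 ratio -1.05) and S100a1 (-1.08) were called as higher in replicate 2. In those models 22.3% of all genes were called in either direction. All 10 were tested, and their median log2 ratio was 0.31. The protein kinase A subunit Prkaca, which phosphorylates phospholamban, led with 723 and 410 reads. The phosphatase subunit Ppp1ca had 327 and 341 reads and the calcium sensor S100a1 107 and 149. Ppp1r1a, an inhibitor of that phosphatase, had 92 and 123 reads. Camk2b, a calmodulin-dependent kinase subunit, had 158 and 62 reads, and Camk2d, another, had 86 and 52. These regulators were read far more often than Pln, with 1692 and 1242 reads in all against 1 and 2.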

How the data were processed

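Long-read RNA sequencing of 2 libraries was used. The authors deposited raw read counts per transcript model, with the exons of each model in an annotation file, on mm10 and GENCODE M21, per the file headers. The attributes name TALON, and neither its version nor the aligner is given in the sources. Models without a read are not listed, so a gene missing from a table was taken as 0.

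Reads of a gene were summed over its models, and spike-ins and unannotated loci were kept out of CPM. Chains were matched between libraries by their introns. Models with fewer exons than the annotation counted only where they held the junction in question. Libraries were compared with Fisher's exact test as described (at least 10 reads in the sum per gene, at least 20 informative reads per library for exons and acceptors), with TMM factors from edgeR 4.0.16 and a prior count of 0.5. Intervals are 95% Wilson or exact Poisson. The length trend was a lowess fit (span 0.3), with an exact binomial test. Other settings used DESeq2 1.42.0 size factors and edgeR's exact test, since 1 library against 1 leaves no residual degree of freedom. Tests were checked on simulated data. Sequences are from GENCODE M21 transcripts. Strit1 was matched to Gm34302 through RefSeq synonyms.

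The members, lists and tests were chosen with earlier results of these data known. The rule for named genes takes every member, and up to 6 genes of each list of calcium-handling genes by mean CPM together with any that was called. Cell type markers are given by list, with the leading, called or undetected ones named after their values were seen. Python 3.11.15 and R 4.3.3 were used.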

Additional observations from a re-analysis of the deposited data

How the results depend on the processing

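Levels and shares moved by less than the spread between the libraries except where few models were allowed. In known models only, Atp2a1 was at 5.17 CPM with exon 22 in 0% of reads, since a short transcript alone counts, and Atp2a3 was at 0 CPM. In full splice models Atp2a3 was at 1.20 CPM, and Pln was at 0.400 CPM in both sets. Genes called fell from 1816 to 601 with the length trend removed (211 higher in replicate 1 and 390 in replicate 2) and to 11 with edgeR's exact test (1 and 10). The ratio of Atp2a1 lost its call under both (0.89 and 1.41). That of Atp2a2 gained one under total scaling (1.21) and in full splice models (1.13). Exons called became 0 in known models only, and last acceptors 4 in place of 8 with at least 50 reads. TMM lies -0.28 (log2) from scaling by the total, and DESeq2's factors lie -0.22 from it. The call of Sln held under each of these settings. Leaving out a library gave means of 35810 to 115580 CPM for Atp2a1, 94.9 to 219 CPM for Atp2a2, 3.20 to 127 CPM for Sln, and 92.8 to 96.4% for exon 22. No paired analysis was possible because the labels give a single group.

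Counting error limits Atp2a3 and Pln. Of the tests, only edgeR's exact test takes in a spread between the libraries, and whether that is a spread between animals is not known. The causes of the differences were not tested.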
